A study of Mus musculus with 6 samples.

Results

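The genes described here encode the working parts of the lysosome: its hydrolases, the proteins of its membrane, its proton pump and the adaptors that deliver its enzymes. They were taken as the genes that the deposited annotation places in the KEGG pathway Lysosome, without the cathepsins and without Acp5, Atp6v0d2, Cd63, Cd68, Lipa, Npc1, Npc2 and Scarb2. This left 111 of the 135 Lysosome genes with a symbol, among 56092 gene symbols in the count table. The rule itself uses no expression value, but it was chosen with earlier results of these data known. RNA-seq was performed on 6 libraries of RAW264.7 cells, a mouse macrophage-like line, with 3 libraries carrying a control vector (shNC) and 3 carrying an shRNA against Trem2 (shTrem2). Trem2 is a lipid-sensing receptor of macrophages. Both groups were stably transduced, puromycin-selected lines, both were exposed for 24 hours to IL-4 (20 ng/mL), which induces arginase-1, and both were then cultured with fragments of TCMK-1 renal tubular epithelial cells for 24 hours. The labels call the control an empty vector and the study's methods give it a control hairpin. They do not say which of the Trem2 hairpins was sequenced, nor whether the 3 libraries of a group came from separate cultures, so the p-values measure the spread between these libraries only, which may be technical. No library without debris or without IL-4 was analysed here.

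A lysosome digests what the cell engulfs or recycles. Its hydrolases work at acid pH, which a proton pump of the vacuolar type (V-ATPase) maintains, and most of them carry a mannose 6-phosphate tag that sorting receptors and clathrin adaptors recognise on the way from the Golgi. Macrophages, which take up dead cells and debris, depend on this supply. Many lysosomal genes share a short E-box-containing promoter motif through which TFEB and related factors can activate them together.

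Total estimated counts ranged from 16054486 to 18290532 in shNC and from 19545744 to 19835186 in shTrem2. Levels are given below as normalised CPM, the estimated counts of a gene scaled to a common library total (counts per 1e6) after TMM normalization, and levels of different genes are compared only in FPKM, which accounts for transcript length. Trem2 itself was present at 114, 122 and 144 normalised CPM in shNC and at 64.7, 63.2 and 80.2 in shTrem2, a log2 fold change of -0.87 (SE 0.0939, adjusted p = 3.39e-06). In the deposited FPKM the fall was larger, with a log2 fold change in limma of -2.06 on the log2(FPKM + 1) scale (adjusted p = 4.31e-05) and -2.08 on the log2(FPKM + 0.1) scale (adjusted p = 3.94e-05). The transcript rows of Trem2 did not move alike: the largest fell from a mean of 67.9 to 15.4 normalised CPM, and the second was at 28.7 in shNC and 48.0 in shTrem2. Among 12 macrophage markers 11 were tested, of which 9 were higher in shTrem2 and 2, Adgre1 and Itgam, were lower, while Mertk had 3 counts or fewer in every library. Their summed level was 5710 to 6712 CPM in shNC and 10875 to 12288 in shTrem2. Lyz2, the largest part, rose from a mean of 2805 to 7365 (log2 fold change 1.39). Of 14 tubular epithelial markers 7 were at 0 in every library, among them Epcam, Krt8, Krt18 and Cdh1, and their summed level was 0.943 to 1.49 CPM in shNC and 2.35 to 2.98 in shTrem2, with Aqp1 the 1 gene tested. The 12 osteoclast markers summed to 595 to 683 CPM in shNC and 674 to 704 in shTrem2, with 7 of 10 tested genes higher and 1 lower, while Calcr was at 0. The lower gene, Car2, was the largest part of this sum, with means of 426 in shNC and 301 in shTrem2. The 8 dendritic cell markers summed to 16.7 to 19.9 CPM in shNC and 33.3 to 38.0 in shTrem2, with 1 of 3 tested genes higher and 2 lower, and Flt3 and Cd209a were at 0. Here Itgax rose from a mean of 4.90 to 29.6, while Zbtb46 fell from 8.06 to 4.48 and Cd24a from 4.91 to 0.607. The 8 neutrophil markers summed to 29.7 to 31.5 and 7.09 to 11.3, almost all from Csf3r, the 1 gene tested, and S100a9, Mpo, Retnlg and Camp were at 0. The 8 fibroblast markers summed to at most 1.29 in any library. Beside these marker counts, 28.8% of all tested genes were higher in shTrem2 and 28.6% lower at FDR < 0.05. The part of these marker differences in the results below was not tested.

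Expression of the lysosomal genes changed in both directions. Of the 111 genes, 101 passed the filter on low counts. In shTrem2, 31 of the 101 were higher (30.7%) and 34 were lower (33.7%) at FDR < 0.05 in edgeR's quasi-likelihood test, and 36 passed neither way. Over all 13528 tested genes the shares were 28.8% higher and 28.6% lower. With a fold change above 1.5 as well, the criterion for a DEG, 3 lysosomal genes were higher (2.97%, against 9.46% of all tested genes) and 12 were lower (11.9%, against 12.4%). The 3 shNC and 3 shTrem2 libraries did not overlap for 72 of the 101 genes (71.3%), against 63.8% of all tested genes. The median log2 fold change of the 101 genes was 0.0017. Their summed counts took 1.47% to 1.496% of the library in shNC and 1.37% to 1.44% in shTrem2. RNA from bulk cultures cannot separate fewer cells of a kind from less RNA per cell, and this holds for every gene below.

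The 10 genes that did not pass the filter were Hyal4, Hyal5, Hyal6, Spam1, Psapl1, Dnase2b, Lamp3, Laptm4b, Atp6v0a4 and Ap3b2. Among these, 8 had no count in any library and the highest count was 18. At these depths 3 counts, the upper limit that a count of 0 allows, correspond to 0.153 to 0.189 CPM, which covers counting error only. They include the sperm hyaluronidase Spam1 and the kidney-enriched pump subunit Atp6v0a4.

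**Figure D1:**
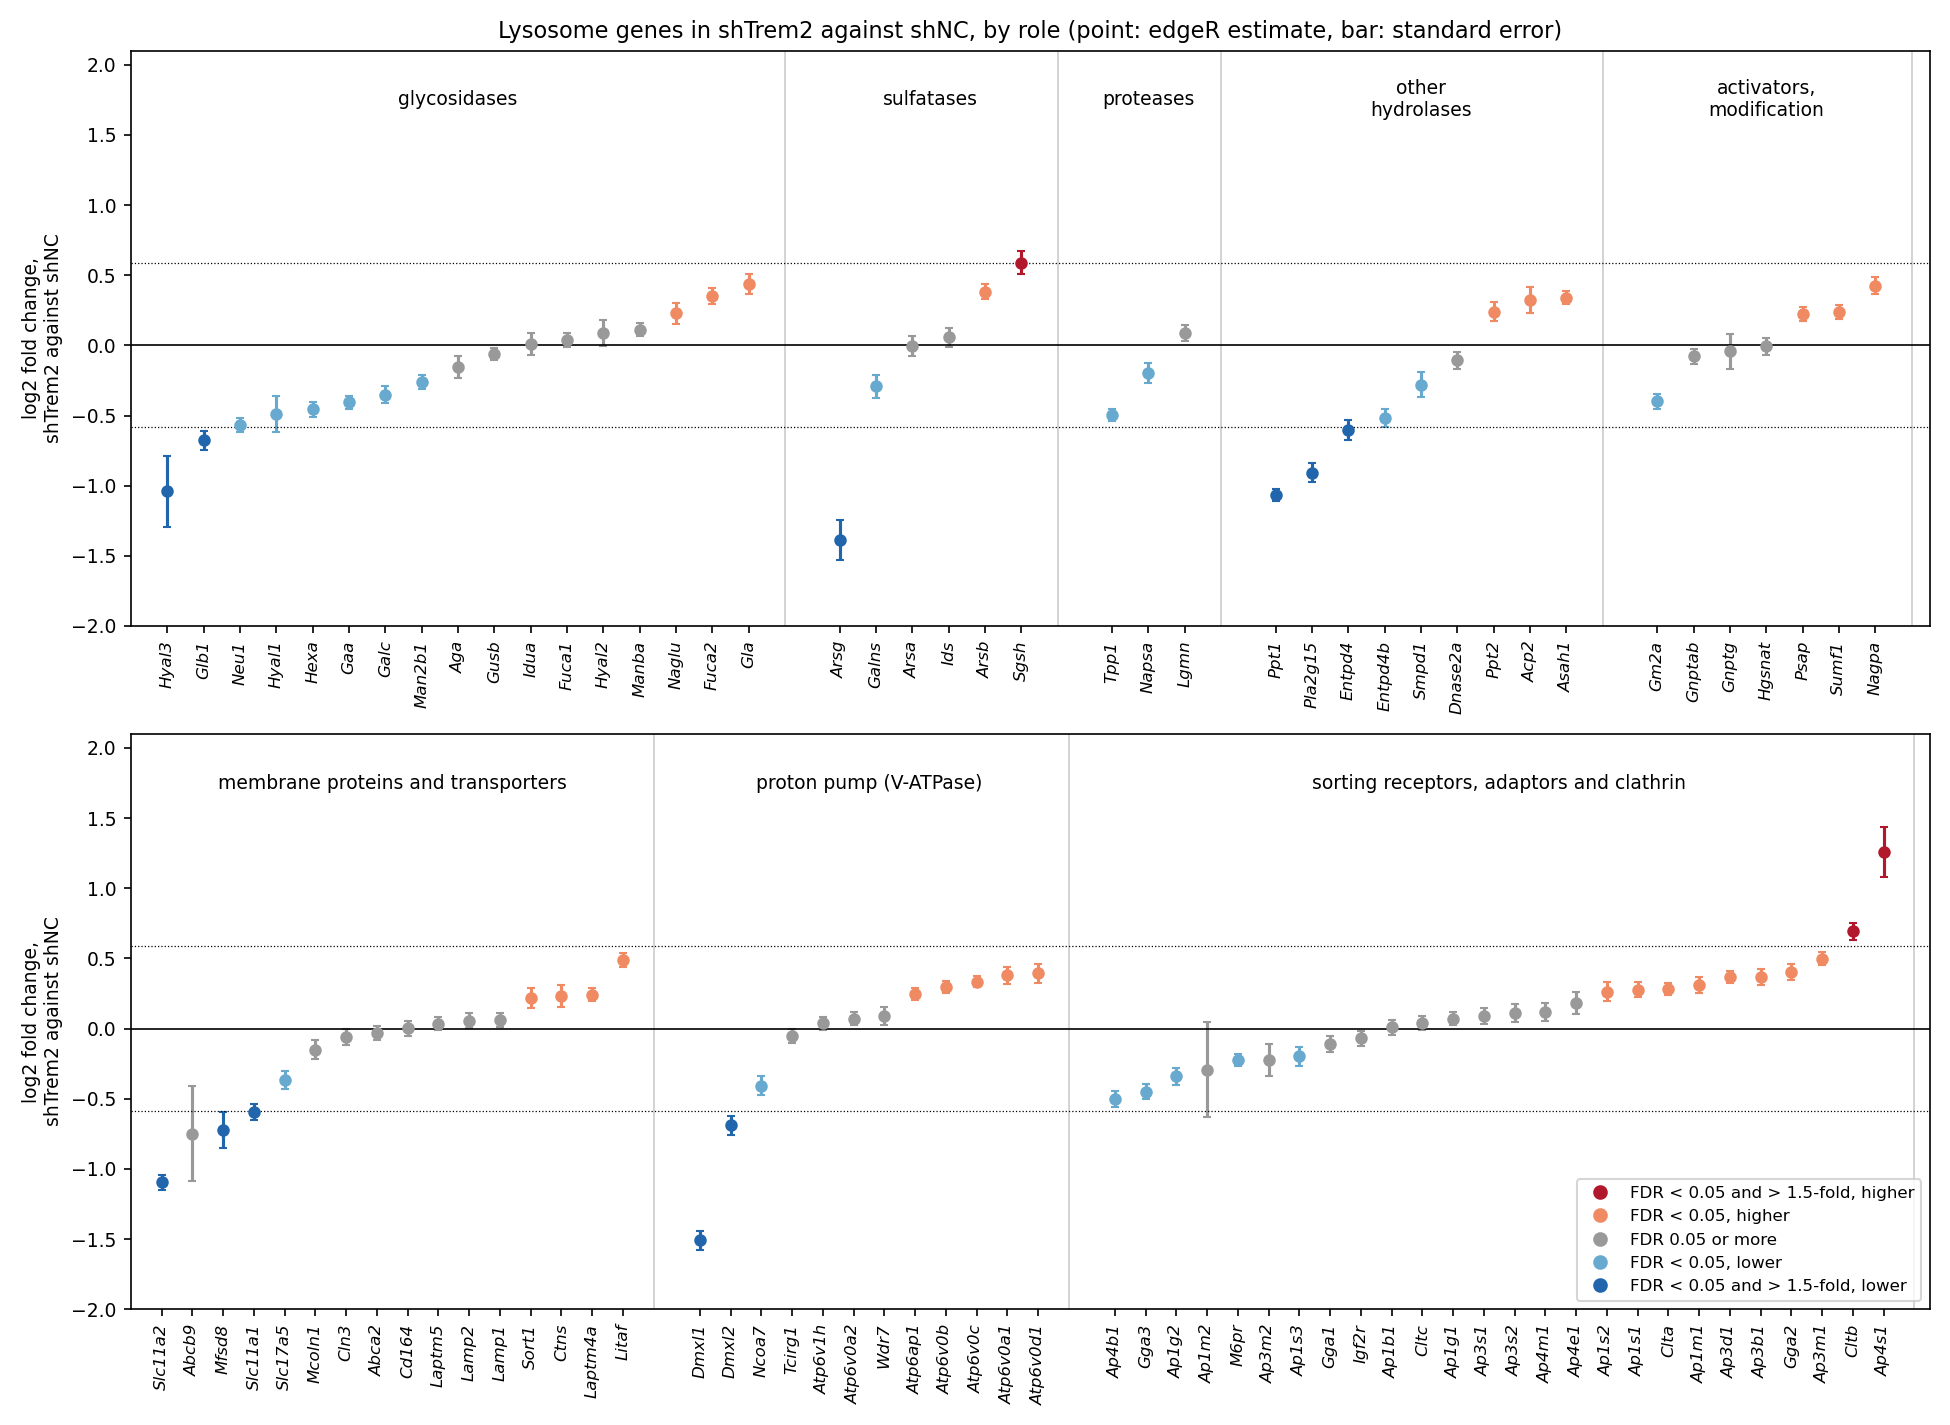
Log2 fold change of 96 of the 101 tested lysosomal genes in shTrem2 against shNC, grouped by role, with points for edgeR estimates, bars for standard errors and dotted lines at a fold change of 1.5. The hydrolases in the upper panel lie mostly below 0, with a median of -0.20 over all 39 tested, while Ap4s1, Cltb and Sgsh are the 3 genes past the upper dotted line.

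Of 39 tested hydrolases, 9 were higher (23.1%) and 20 lower (51.3%), with a median log2 fold change of -0.20, beside 28.8% and 28.6% and a median near 0 over all tested genes. With the fold threshold as well, 1 hydrolase was higher (2.56%) and 7 were lower (17.9%), against 9.46% and 12.4% of all tested genes. Among the glycosidases, which cut sugars from glycoproteins, glycolipids and glycosaminoglycans, 11 of 20 were lower and 3 higher.

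Glb1, the acid beta-galactosidase, fell the most among the well-expressed glycosidases. It was at 97.0, 98.0 and 102 normalised CPM in shNC and at 63.8, 67.6 and 54.7 in shTrem2 (log2 fold change -0.68, SE 0.0700, adjusted p = 2.25e-06), with every shTrem2 library below every shNC library. Its exons overlap those of Tmppe on the same strand, so counts of this pair can be shared. Hyal3, a hyaluronidase family member of low level, was at 2.92, 3.27 and 2.80 against 1.15, 1.83 and 1.39 normalised CPM (log2 fold change -1.04, SE 0.252, adjusted p = 0.00295). Hyal3 and Hyal1 overlap each other and Naa80 on the same strand, so neither change can be assigned to 1 of them with certainty.

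Hexa, an enzyme subunit that degrades ganglioside GM2, was lower in shTrem2, as was its cofactor. It was the most highly expressed glycosidase at 395 ± 2.79 FPKM in shNC (SD, n = 3), and was at 652, 662 and 666 normalised CPM in shNC and 491, 513 and 441 in shTrem2 (log2 fold change -0.45, SE 0.0537, adjusted p = 7.84e-06). Gm2a, the GM2 activator that lifts the lipid out of the membrane for digestion, was at 91.9 ± 1.72 and 69.6 ± 3.84 normalised CPM (SD, n = 3; log2 fold change -0.40, adjusted p = 3.22e-05). In both genes the libraries of the groups did not overlap. Other lower glycosidases were the sialidase Neu1 (log2 fold change -0.57), the hyaluronidase Hyal1 (-0.49), the acid alpha-glucosidase Gaa (-0.41), the galactosylceramidase Galc (-0.35) and the lysosomal alpha-mannosidase Man2b1 (-0.26).

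The 3 higher glycosidases were Gla, the alpha-galactosidase A that removes the terminal galactose of globosides (log2 fold change 0.44, adjusted p = 0.000105), the fucosidase Fuca2 (0.35) and the heparan sulfate enzyme Naglu (0.23). Gusb, the beta-glucuronidase and the second most highly expressed glycosidase at 183 ± 6.36 FPKM in shNC, overlapped between groups, with 398, 421 and 413 normalised CPM in shNC and 400.2, 386 and 397 in shTrem2 (log2 fold change -0.06, SE 0.0433, adjusted p = 0.258). Aga, Idua, Fuca1, Hyal2 and Manba also did not pass the test.

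Among the 7 sulfatases, which remove sulfate groups from glycosaminoglycans and sulfolipids, 3 were higher (42.9%) and 2 lower (28.6%). Over all tested genes the shares were 28.8% and 28.6%. Sgsh, the heparan N-sulfatase, rose from 33.9, 32.3 and 40.9 normalised CPM in shNC to 52.3, 57.0 and 52.0 in shTrem2 (log2 fold change 0.59, SE 0.0825, adjusted p = 3.67e-05), just past the fold threshold. Arsg, which also acts on heparan sulfate, moved the other way, from 13.6, 11.6 and 14.7 to 4.85, 5.90 and 4.48 (log2 fold change -1.39, SE 0.143, adjusted p = 2.21e-06). Neither gene had a shTrem2 library within the range of shNC. Arsb rose as well (log2 fold change 0.38, adjusted p = 2.66e-05). Galns, the keratan sulfate enzyme, fell (-0.29, adjusted p = 0.00773), while Arsa and Ids did not pass the test.

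Heparan sulfate is taken apart by several of these enzymes in sequence. Of them, Sgsh and Naglu were higher and Arsg was lower, whereas Ids (log2 fold change 0.06), Idua (0.01), Gusb (-0.06) and the acetyltransferase Hgsnat (-0.01) did not pass the test. By the deposited KEGG annotation, 15 of the tested genes also belong to glycosaminoglycan degradation, with 4 higher and 6 lower. A further KEGG pathway shared by many of them was sphingolipid metabolism, in which 8 of 12 tested genes were lower (among them Glb1, Neu1, Hexa, Galc, Gm2a and Smpd1) and 3 were higher (Gla, Psap and Asah1). Other glycan degradation held 10 genes, with 6 lower and 1 higher. Pathways that hold the proton pump went the other way. Phagosome had 11 tested genes, with 5 higher and 1 lower. Tuberculosis had 10, with 5 higher and none lower, and synaptic vesicle cycle had 10, with 6 higher and none lower. These pathways share genes with each other and were looked up after the values were known. Beside these counts, 28.8% of all tested genes were higher and 28.6% lower.

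Only 3 proteases remained once the cathepsins were set apart. Tpp1, the tripeptidyl peptidase, fell from 337, 335 and 325 normalised CPM to 240.4, 241 and 226 (log2 fold change -0.50, SE 0.0446, adjusted p = 6.1e-07), without overlap. Lgmn, the asparaginyl endopeptidase that processes cathepsins, was the most highly expressed of the 3 at 375 ± 25.6 FPKM in shNC and 387 ± 19.0 in shTrem2 (SD, n = 3). Its count libraries overlapped, with 563, 594 and 652 against 644, 672 and 606 normalised CPM (log2 fold change 0.09, SE 0.0579, adjusted p = 0.216), and without shNC replicate 3 it passed (0.15, adjusted p = 0.0369). Napsa, an aspartic protease, had 60.5, 62.1 and 60.9 against 50.1, 59.9 and 50.2 (log2 fold change -0.20, SE 0.0707, adjusted p = 0.0288), and its adjusted p under the alternatives ranged from 0.00152 to 0.141. Napsa passed the test by a narrow margin, with 1 shTrem2 library close to the shNC range.

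The 9 tested hydrolases of lipids, fatty acyl groups, nucleic acids and phosphates included 3 DEGs, all lower (33.3%, against 12.4% of all tested genes). Ppt1 removes palmitate from proteins and is the gene of infantile neuronal ceroid lipofuscinosis. It was at 464, 464 and 480.4 normalised CPM in shNC and at 222, 223 and 228 in shTrem2 (log2 fold change -1.06, SE 0.0424, adjusted p = 4.75e-10). No library of one group came near the range of the other. Pla2g15, the lysosomal phospholipase A2, was at 57.3, 65.6 and 61.4 against 32.7, 34.7 and 31.1 normalised CPM (log2 fold change -0.91, SE 0.0683, adjusted p = 1.16e-07). Entpd4, a nucleoside diphosphatase, was at 40.3, 43.1 and 38.1 against 28.0, 26.5 and 25.4 (log2 fold change -0.60, SE 0.0707, adjusted p = 7.25e-06). Its near-identical copy Entpd4b fell too (-0.52, adjusted p = 1.33e-05), and how reads were divided between the copies is uncertain. The sphingomyelinase Smpd1 was lower (-0.28, adjusted p = 0.015).

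In the same class, Asah1, the acid ceramidase, was higher, at 118 ± 6.32 normalised CPM in shNC and 149.8 ± 1.36 in shTrem2 (SD, n = 3; log2 fold change 0.34, SE 0.0494, adjusted p = 4.95e-05). Ppt2, a relative of Ppt1, was also higher (0.24, adjusted p = 0.00843), as was the acid phosphatase Acp2 (0.32, adjusted p = 0.00842). Thus Ppt1 and Ppt2 went in opposite directions, although part of the Ppt2 locus is shared on the same strand with the annotated transcript Gm20460. Dnase2a, the lysosomal nuclease that digests DNA of engulfed cells, was at 105, 104 and 118 normalised CPM in shNC and 98.1, 104 and 100.1 in shTrem2 (log2 fold change -0.11, SE 0.0579, adjusted p = 0.131).

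**Figure D2:**
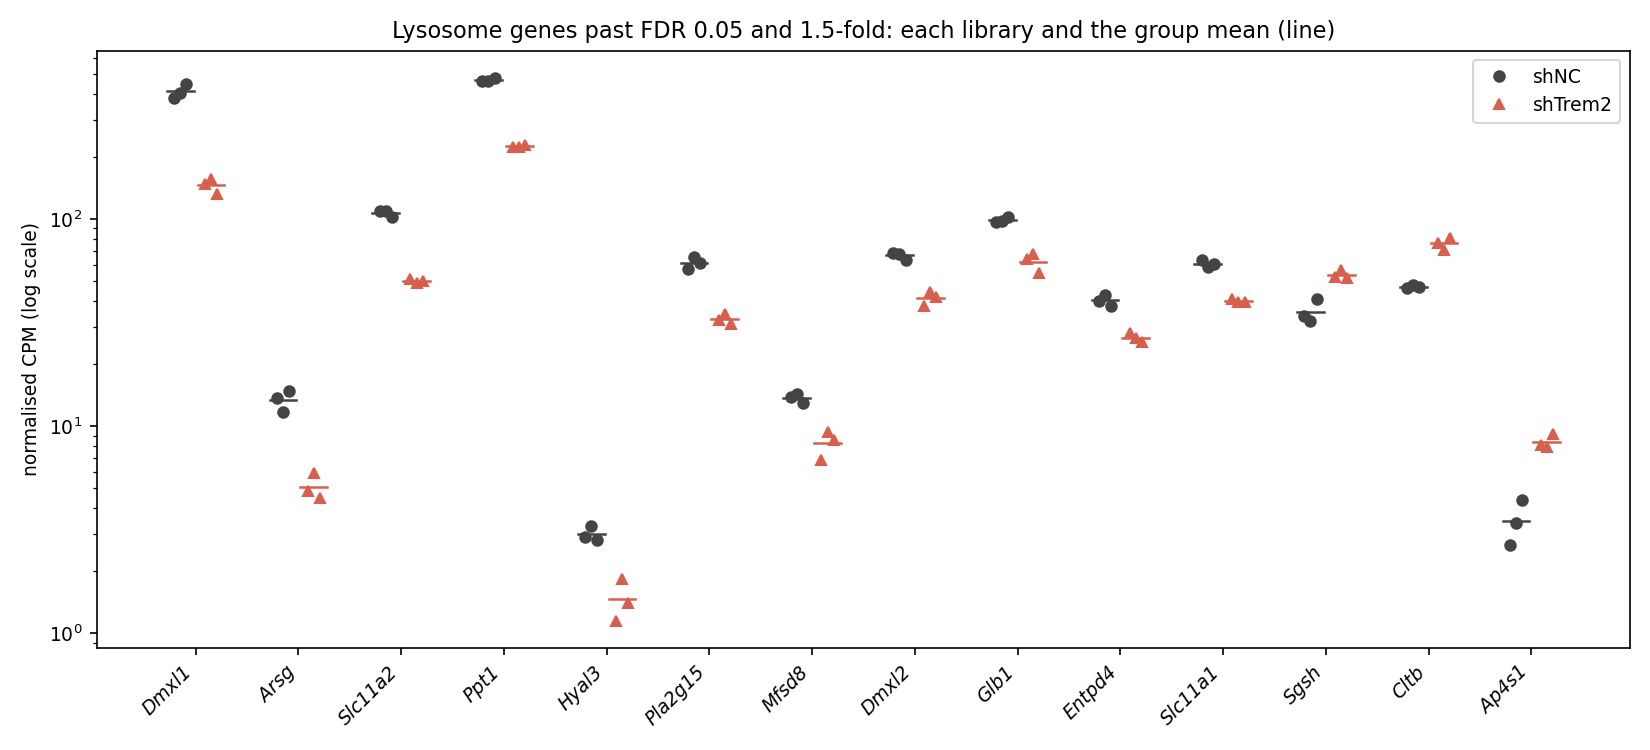
Normalised CPM on a log axis for 14 of the 15 lysosomal genes past FDR 0.05 and a fold change of 1.5, with circles for the 3 shNC libraries, triangles for the 3 shTrem2 libraries and lines for group means. In each of the 14 genes the libraries of both groups are fully separated, from Dmxl1 on the left (log2 fold change -1.51) to Ap4s1 on the right (1.26).

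Activators and modifying enzymes are needed before the hydrolases can work. Psap is the precursor of the saposins that present sphingolipids to their enzymes. Its mean FPKM over all 6 libraries was second only to that of Lamp1 among the lysosomal genes described here. Psap was at 408 ± 6.10 FPKM in shNC and 466 ± 28.1 in shTrem2 (SD, n = 3). In normalised CPM it was at 926, 954 and 958 against 1122, 1163 and 1028 (log2 fold change 0.22, SE 0.0507, adjusted p = 0.00188), without overlap. Gm2a, described above, was the 1 lower gene of the 7 tested. Nagpa, the uncovering enzyme that exposes the mannose 6-phosphate tag, rose from 58.8, 51.4 and 53.4 to 74.9, 71.0 and 73.8 normalised CPM (log2 fold change 0.43, SE 0.0614, adjusted p = 4.79e-05). Sumf1, which activates every sulfatase, rose from 81.0 ± 2.99 to 95.5 ± 0.953 (SD, n = 3; 0.24, adjusted p = 0.00117). Gnptab and Gnptg, which start the tag, had log2 fold changes of -0.08 and -0.04 and did not pass the test.

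The abundant structural proteins Lamp1, Lamp2 and Laptm5 of the lysosomal membrane did not pass the test. Lamp1 was the most highly expressed of the lysosomal genes described here, at 529 ± 8.20 FPKM in shNC and 540.1 ± 29.0 in shTrem2 (SD, n = 3). Its log2 fold change from counts was 0.06 (SE 0.0492, adjusted p = 0.302). Without shTrem2 replicate 3 it passed, at 0.10 (adjusted p = 0.0440). Lamp2 was at 374, 373 and 407 normalised CPM in shNC and 384, 428 and 388 in shTrem2 (0.06, SE 0.0537, adjusted p = 0.389). Laptm5, an immune-cell lysosomal protein, was at 684, 705 and 716 against 755, 723 and 679.9 (0.04, SE 0.0482, adjusted p = 0.549). In all 3 genes the libraries of the groups overlapped.

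The metal transporters of the membrane were lower. Slc11a2 (DMT1), which moves ferrous iron out of endosomes, was at 109.8, 109 and 102 normalised CPM in shNC and 51.1, 49.1 and 50.3 in shTrem2 (log2 fold change -1.09, SE 0.0540, adjusted p = 2.38e-09). Slc11a1 (NRAMP1), the phagosomal metal transporter of macrophages, was at 63.2, 58.9 and 60.4 against 41.3, 39.8 and 39.9 (-0.59, SE 0.0573, adjusted p = 1.2e-06). Both genes of this family were separated without overlap, and the larger fall was that of Slc11a2. Mfsd8, a multi-pass protein mutated in a neuronal ceroid lipofuscinosis, was at 13.8, 14.3 and 12.9 against 6.83, 9.35 and 8.60 normalised CPM (-0.73, SE 0.128, adjusted p = 0.000269).

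Of the 17 tested membrane proteins, 4 were higher (23.5%) and 5 lower (29.4%), against 28.8% and 28.6% of all tested genes. The sialic acid exporter Slc17a5 was also lower (log2 fold change -0.37). The higher genes were Litaf (0.49), Laptm4a (0.24), the cystine exporter Ctns (0.23) and the sorting receptor Sort1 (0.22). Abcb9, a peptide transporter of low level, was at 1.43, 1.28 and 1.59 against 1.15, 0.836 and 0.567 normalised CPM. Its log2 fold change of -0.75 had an SE of 0.338 (adjusted p = 0.0732), so it did not pass the test although the libraries did not overlap. The calcium channel Mcoln1 (-0.15, adjusted p = 0.0783), Cln3, Abca2 and Cd164 did not pass either.

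Among the lysosomal genes, the called subunits of the proton pump were higher and the called proteins that regulate it were lower. Of these genes, 6 tested subunits belong to the membrane sector V0, through which protons pass. In this sector 4 were higher (66.7%) and none lower, against 28.8% and 28.6% of all tested genes, with a median log2 fold change of 0.32. Among V0 subunits outside the lysosomal genes described here, Atp6v0e2 was lower (-0.23, adjusted p = 0.0106), Atp6v0e was not called (-0.05) and Atp6v0d2 was higher (1.61). Atp6v0c, the proteolipid that forms the rotor ring, was at 333, 328 and 339 normalised CPM in shNC and 428, 417 and 418 in shTrem2 (log2 fold change 0.34, SE 0.0416, adjusted p = 1.23e-05). Atp6v0b, a second proteolipid, was at 144, 145 and 149 against 181, 183 and 174 (0.30, SE 0.0448, adjusted p = 7e-05). The shTrem2 libraries of both lay above every shNC library. Atp6v0d1, the stalk subunit, rose by a log2 fold change of 0.39 and Atp6v0a1 by 0.38, while the other a subunits did not pass the test, with Atp6v0a2 at 0.07 and Tcirg1, the a3 subunit, at -0.05 (SE 0.0496, adjusted p = 0.404). The accessory subunit Atp6ap1 was higher (0.24, adjusted p = 0.000225), and Atp6v1h, the V1 subunit in the pathway, was not called (0.04). In limma on log2(FPKM + 1) the calls of Atp6v0a1 (adjusted p = 0.0696) and Atp6ap1 (adjusted p = 0.110) were lost.

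Dmxl1 had the largest fall of all the lysosomal genes. With Dmxl2 and Wdr7 it forms rabconnectin-3, a complex that helps the V1 and V0 sectors to assemble. Dmxl1 was at 386, 408 and 447 normalised CPM in shNC and 147, 157 and 132 in shTrem2 (log2 fold change -1.51, SE 0.0668, adjusted p = 8.89e-10), a level 64.9% lower. Dmxl2 was at 68.8, 67.8 and 63.6 against 38.1, 44.2 and 41.9 (-0.69, SE 0.0659, adjusted p = 1.08e-06). Their partner Wdr7 overlapped between groups (0.09, SE 0.0673, adjusted p = 0.273). Ncoa7, whose TLDc domain binds the pump, was at 39.3, 44.1 and 42.5 against 32.9, 29.9 and 32.1 normalised CPM (-0.41, SE 0.0682, adjusted p = 0.000172). Its exons overlap Hint3 on the same strand. For Dmxl1 the largest transcript row, with 82.2% of the shNC counts, fell from 339.8 ± 32.1 to 113 ± 16.4 normalised CPM, and the second row from 53.7 ± 2.32 to 24.2 ± 6.37 (SD, n = 3), so both leading rows were lower.

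**Figure D3:**
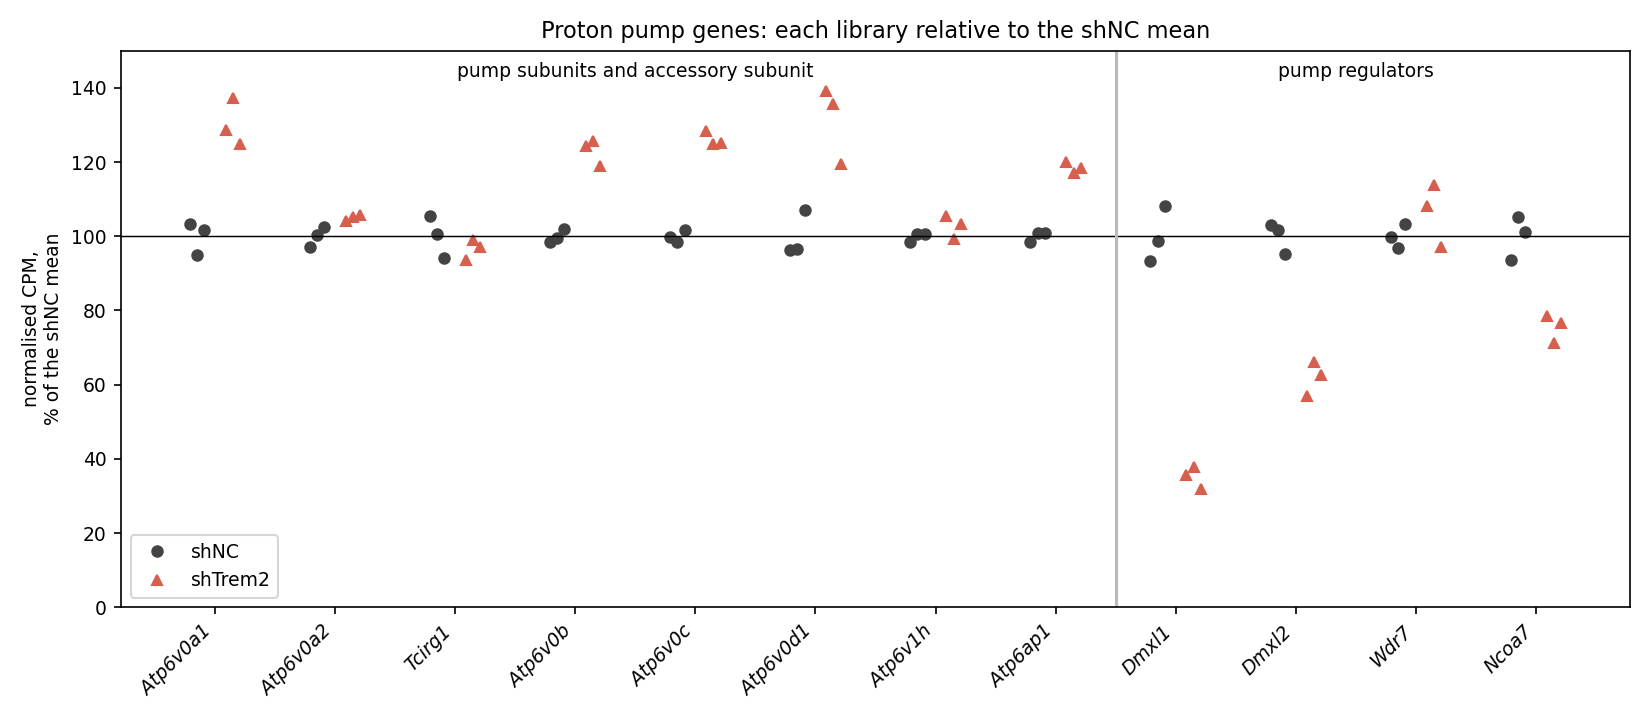
Normalised CPM of the 12 tested proton pump genes in each library, as a percentage of the shNC mean of that gene, with circles for shNC and triangles for shTrem2. Atp6v0a1, Atp6v0b, Atp6v0c, Atp6v0d1 and Atp6ap1 lie above 100 in every shTrem2 library, whereas Dmxl1, Dmxl2 and Ncoa7 lie below 100 in every shTrem2 library.

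The cytosolic sector V1 and its assembly factors lie mostly outside the pathway annotation and were read from a separate list. After 4 genes already among the pump genes above were removed, it held 23 symbols. These included V0 subunits Atp6v0e and Atp6v0e2 and the accessory subunit Atp6ap2. Of the 16 tested, 4 were higher (25.0%) and 3 lower (18.8%), against 28.8% and 28.6% of all tested genes, with a median log2 fold change of 0.05. The higher genes were the V1 subunits Atp6v1a, Atp6v1b2, Atp6v1c1 and Atp6v1g1. The lower genes were the V0 subunit Atp6v0e2, Rogdi and Tmem199, so no V1 subunit was called lower. Atp6v1b2, the widely expressed B subunit, was at 174 ± 6.14 normalised CPM in shNC and 243 ± 4.18 in shTrem2 (0.48, adjusted p = 9.04e-07). Rogdi, a relative of a yeast pump assembly protein, was at 35.5 ± 0.545 and 22.5 ± 0.974 (-0.66, adjusted p = 2.15e-06), and Tmem199, an assembly factor, at 71.7 ± 2.06 and 53.8 ± 0.571 (-0.41, adjusted p = 1.78e-05; SD and n = 3 throughout).

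Sorting receptors, adaptors and clathrin formed the largest class, with 26 tested genes, of which 10 were higher (38.5%) and 5 lower (19.2%), against 28.8% and 28.6% of all tested genes. The clathrin light chains were higher in shTrem2. Cltb was at 46.4, 48.3 and 46.9 normalised CPM in shNC and 76.7, 70.9 and 81.0 in shTrem2 (log2 fold change 0.69, SE 0.0614, adjusted p = 5.36e-07). Clta was at 166, 173 and 174 against 207, 212 and 206 (0.28, SE 0.0436, adjusted p = 8.53e-05). The heavy chain Cltc, which forms the cage with them, overlapped, at 1042, 1029.9 and 1097 against 1089, 1133 and 1039 (0.04, SE 0.0479, adjusted p = 0.491), and its sign turned in FPKM.

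Ap4s1, the small subunit of the AP-4 adaptor, had the largest rise of the lysosomal genes described here, from a low level. It was at 2.67, 3.38 and 4.40 normalised CPM in shNC and 8.14, 7.89 and 9.12 in shTrem2 (log2 fold change 1.26, SE 0.180, adjusted p = 4.49e-05). Another subunit of the same complex, Ap4b1, fell from 68.7, 69.0 and 67.8 to 48.9, 50.5 and 45.6 (-0.50, SE 0.0574, adjusted p = 5.66e-06), and Ap4e1 and Ap4m1 did not pass the test. Ap4b1 shares exons with Gm43064 on the same strand. The subunits of AP-4 therefore did not move together.

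AP-3, which carries membrane proteins to lysosomes, had 3 of 6 tested subunits higher and none lower, against 28.8% and 28.6% of all tested genes. Whether this small set differed from these shares was not tested. The higher subunits were Ap3m1 (log2 fold change 0.50), Ap3b1 (0.37) and Ap3d1 (0.37). The call of Ap3d1 was lost in limma on log2(FPKM + 1), where its log2 fold change was 0.02 (adjusted p = 0.685), which leaves 2 of the 3. AP-1, which works at the Golgi, had 3 of 8 higher (37.5%) and 2 lower (25.0%), not far from the shares of all tested genes. Its small subunit Ap1s1, the most highly expressed gene of the class at 272 ± 23.9 FPKM in shNC and 313 ± 7.79 in shTrem2 (SD, n = 3), was among the higher ones (log2 fold change from counts 0.28, SE 0.0532, adjusted p = 0.000522), with Ap1m1 (0.31) and Ap1s2 (0.26). Ap1g2 (-0.34) and Ap1s3 (-0.20) were lower. Of the mannose 6-phosphate receptors, M6pr was lower (-0.22, adjusted p = 0.00076) and Igf2r was not called (-0.07, adjusted p = 0.265). The GGA adaptors that bind these receptors went both ways, with Gga2 higher (0.40), Gga3 lower (-0.45) and Gga1 not called (-0.11).

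Genes that control lysosome number, fusion and turnover were read from lists beside the pathway. Among 24 tested transcription factors and mTORC1-lysosome signalling genes, 7 were higher (29.2%) and 4 lower (16.7%), against 28.8% and 28.6% of all tested genes. The master regulators were not called, with Tfeb at a log2 fold change of 0.04 (SE 0.118, adjusted p = 0.791), Tfe3 at -0.01 (adjusted p = 0.856) and Mitf at -0.10 (adjusted p = 0.112). Tfec, their myeloid relative, was at 0.124, 0.333 and 0.165 CPM in shNC, near the level of 3 counts, and 1.41, 1.52 and 0.618 in shTrem2 (adjusted p = 0.00113). The arginine sensor Slc38a9 fell (-0.71, adjusted p = 2.33e-06) and Ywhaz, of the 14-3-3 family that can hold TFEB in the cytosol, rose (0.60, adjusted p = 1.66e-06).

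Of 30 tested fusion and positioning genes, 9 were higher (30%) and 6 lower (20%), against 28.8% and 28.6% of all tested genes, with Bloc1s2 (log2 fold change -0.81) and Mon1b (-0.61) falling and the SNARE Vamp8 rising (0.57). Of 33 autophagy genes, 8 were higher (24.2%) and 12 lower (36.4%), and the 3 largest changes were falls of Wipi1 (-0.66), the initiating kinase Ulk1 (-0.63) and the receptor Calcoco1 (-0.61). The 24 Lysosome genes set apart at the start had 20 tested, of which 9 were higher (45%) and 8 lower (40%), again beside 28.8% and 28.6% of all tested genes. Their largest changes were rises of Ctsk (6.07), Atp6v0d2 (1.61) and Acp5 (1.37), which also belong to the osteoclast markers above.

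Promoter sequence was read for the genes because many lysosomal promoters carry the E-box CACGTG, which TFEB-family factors bind. RefSeq windows (GRCm38.p6) of 250 bases before to 50 after the start were found for 88 of the 111 genes. The palindrome CACGTG, which reads alike on both strands, was present in 20 of them (22.7%), against 8.09% of 27025 genes in the same table. The longer palindrome TCACGTGA, which contains the first, was present in 8 (9.09%), against 1.12%. By call, CACGTG stood in the windows of 9 of 27 higher genes, 3 of 24 lower genes and 8 of 29 genes that passed neither way. A match describes the letters only.

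The windows of 4 genes that hold CACGTG are shown, taken as DEGs first and then by the largest change in either direction. Glb1 and Entpd4b were lower, and Sgsh and Gla were higher. Glb1 (chr9:114400828-114401077, plus strand) and Entpd4b (chr14:69555151-69555400, plus strand) are shown with all 250 bases before the start. Sgsh (chr11:119355522-119355551, minus strand) and Gla (chrX:134601215-134601244, minus strand) are shown as 30 bases around the motif, since protein-coding exons lie in the rest. Capitals mark CACGTG.
Glb1: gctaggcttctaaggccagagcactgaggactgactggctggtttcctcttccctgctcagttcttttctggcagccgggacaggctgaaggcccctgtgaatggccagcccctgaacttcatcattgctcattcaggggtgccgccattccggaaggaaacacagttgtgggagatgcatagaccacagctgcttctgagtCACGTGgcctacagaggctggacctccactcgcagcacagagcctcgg
Sgsh: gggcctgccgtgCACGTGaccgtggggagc
Entpd4b: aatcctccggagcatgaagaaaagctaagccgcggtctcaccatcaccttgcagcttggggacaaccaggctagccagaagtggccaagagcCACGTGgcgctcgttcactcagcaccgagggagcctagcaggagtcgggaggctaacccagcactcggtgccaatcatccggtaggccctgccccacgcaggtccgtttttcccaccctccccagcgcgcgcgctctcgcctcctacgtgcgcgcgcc
Gla: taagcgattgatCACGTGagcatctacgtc
Counted from the start, with negative numbers before it, the motif begins at -48 in Glb1, -29 in Sgsh, -158 in Entpd4b and -227 in Gla. Gla holds CACGTG again at -194, and of the 4 it is the gene whose window holds TCACGTGA.

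Counts summed over transcripts and FPKM gave near-identical changes for most genes. The log2 fold change from counts and the log2 ratio of mean FPKM differed by more than 0.2 for 3 of the 101 genes. Ap3d1 rose by 0.37 in counts, whereas its FPKM ratio was 0.02. Gga3 was at -0.45 in counts and -0.24 in FPKM, and Dnase2a was at -0.11 in counts and 0.10 in FPKM. For Dnase2a the leading transcript rows moved apart, the first from 49.8 ± 7.75 to 55.9 ± 0.657 normalised CPM and the second from 48.3 ± 0.514 to 34.3 ± 3.02 (SD, n = 3). The call of Ap3d1 and that of Gga3 were lost in FPKM.

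**Figure D4:**
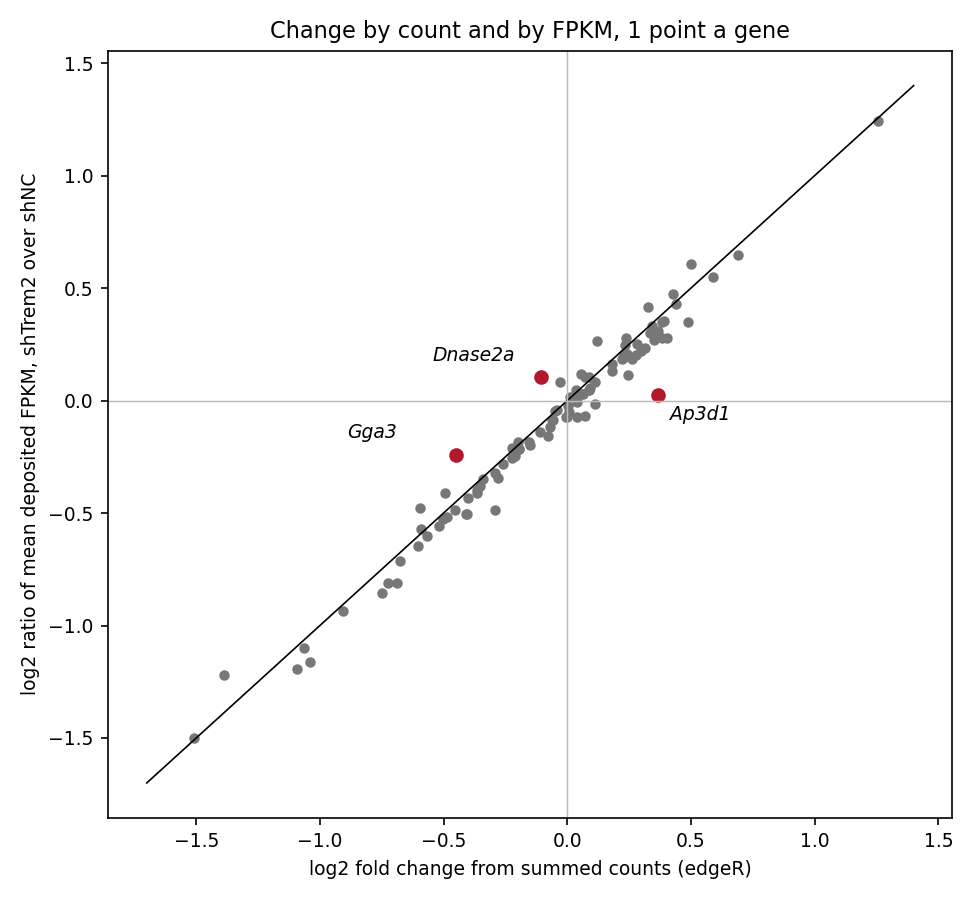
Log2 fold change from summed counts against the log2 ratio of mean FPKM for the 101 tested lysosomal genes, with 1 point per gene and a line of equality. Ap3d1, Gga3 and Dnase2a, in red, differ by more than 0.2 between the axes.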

How the data were processed

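Polyadenylated RNA of 6 libraries was sequenced from stranded libraries. According to the study's methods and the submitters' processing notes, the authors used fastp for read trimming, HISAT2 for alignment to GRCm39 and StringTie for assembly. The counting tool and the annotation release are not given in the sources used here. The authors deposited estimated counts per transcript row, 79.3% of them fractional where above 0, and FPKM per gene. Their group means were not used. A shared splice form or a near-identical copy can therefore move counts between rows and genes.

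Counts were summed per symbol and rounded. Rows without a symbol, 0.908% to 1.12% of a library, were left out. Differences were tested with edgeR 4.0.16 in R 4.3.3 (TMM, filterByExpr, glmQLFit and glmQLFTest, no covariate) over 13528 genes with Benjamini-Hochberg adjustment, and the procedure was tested on simulated data. DEGs had FDR under 0.05 and a fold change over 1.5, the study's criteria. Adjusted p-values are from this test unless another is named. Normalised CPM is the count per 1e6 counts of TMM-scaled library size, and values after ± are SDs over 3 libraries. Alternatives were DESeq2 1.42.0, limma 3.58.1 (voom, and log2(FPKM + 1) and log2(FPKM + 0.1)), other scalings and filters, a replicate block, FDR under 0.01 and each library left out. Libraries of 1 group differed by more than sampling noise.

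The members, roles and lists were chosen with earlier results of these data known. Genes were named by a rule: DEGs, and in each role the 3 highest by FPKM and the 3 largest changes. Of the lists, the 3 largest called changes were named. The other called genes were named after their values were seen, to account for each role. So were Tfeb, Tfe3, Mitf, Atp6v0e, Atp6ap2 and the marker genes. Roles of 8 members were added after the files were opened. Same-strand overlaps came from GENCODE M21 (GRCm38) and promoters from RefSeq. Genes with no promoter entry included Aga, Hyal4, Hgsnat, Entpd4, Asah1, Slc11a2, Sort1, Laptm4b, Napsa, Dmxl1, Atp6v1h, Atp6v0a2, Wdr7, M6pr, Ap3m2, Ap3s1, Ap1m1 and Galns. Some members counted in the totals are not reported here by name.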

Additional observations from a re-analysis of the deposited data

How the results depend on the processing

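Every named lysosomal gene past FDR 0.05 and a fold change of 1.5 kept its direction and stayed under FDR 0.05 in the alternatives run, but the fold threshold moved some of them. Sgsh fell short of it with upper quartile or library size scaling, with either count filter, in FPKM, and without shNC replicate 1 or 2 or shTrem2 replicate 2. Slc11a1 fell short in FPKM and without shNC replicate 1 or shTrem2 replicate 2, and Entpd4 without shNC replicate 2 or shTrem2 replicate 3. Over all alternatives their log2 fold changes were 0.51 to 0.70, -0.63 to -0.57 and -0.65 to -0.56. Neu1, Ap3m1 and Hyal1 crossed it under some settings. Some genes gained a call at FDR 0.05: Abcb9, whose reported fold change was already past the threshold, with at least 10 counts in every library (adjusted p = 0.0412), in log2(FPKM + 1) (0.0491) and without shTrem2 replicate 1 (0.0466), Lamp1 without shTrem2 replicate 3 (0.0440), Lgmn without shNC replicate 3 (0.0369) and Dnase2a with library size only (0.0477). Leaving out 1 library gave 27 to 32 higher and 32 to 35 lower genes at FDR 0.05, and 2 to 3 higher and 11 to 13 lower DEGs. The median log2 fold change of the lysosomal genes, 0.0017, was -0.032 with library size only, -0.036 in log2(FPKM + 1) and -0.039 in log2(FPKM + 0.1), and -0.021 to 0.027 with 1 library left out, so it has no stable sign. Library size only moved the median of all tested genes to -0.034. In FPKM, 23 genes were higher and 32 or 31 lower, for pseudocounts of 1 and 0.1. Signs turned in FPKM for Cltc (-0.0045 with either pseudocount) and Dnase2a (0.10 with 1 and 0.11 with 0.1), which passed no test there. Napsa lost its call in DESeq2 (adjusted p = 0.0532), at FDR 0.01 and without shNC replicate 2 or 3 or shTrem2 replicate 1 or 3 (adjusted p = 0.057 to 0.141). Other calls were lost with 1 library left out, at adjusted p from edgeR between 0.0519 and 0.127: Acp2 (without shNC replicate 1 or 2), Ap1s3 and Naglu (the same, and shTrem2 replicate 1 or 2), Ctns (shNC replicate 1 or 2, shTrem2 replicate 1), Ppt2 (shTrem2 replicate 1), Smpd1 (shNC replicate 3) and Sort1 (shNC replicate 2 or 3, shTrem2 replicate 2). Ap1s3, Ctns and Sort1 were also lost in DESeq2. The calls of Ap1g2, Ap1s2, Ap1s3, Ap3d1, Atp6ap1, Atp6v0a1, Ctns, Gga3, Gla, Naglu and Sort1 were lost in FPKM. The cause of these changes was not tested. Same-numbered libraries showed no common deviation over the genes compared (correlations of -0.028, -0.0090 and -0.033). A pairing limited to some genes was not tested, and the main test used the numbers as sample names only. With the replicate block, 32 genes were higher and 35 lower, with 3 and 12 DEGs. Genes near 1 normalised CPM, such as Abcb9 and Ap1m2, are limited by depth.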
